A study of Homo sapiens with 17 samples.

Results

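PAX2, PAX8, LHX1, EYA1, SALL1, WT1, GATA3 and OSR1 are regulators of the nephric lineage, and they were followed here in HEK293T, an embryonic kidney cell line. The 8 genes were taken by name from a table of 23368 genes, and each had at least 1 count in at least 1 library. The assay was acRIP-seq on poly(A) RNA, which sequences the transcripts bound by an antibody against N4-acetylcytidine (ac4C) beside those of the input and of a control IgG pull-down. The 17 libraries fell into 6 groups of 3 libraries each, except that the IgG group of WT held 2. The siTDP43 cells received siRNA against TARDBP, the gene of the RNA-binding protein TDP43, and since no control siRNA is named for WT, the effects of transfection, handling and knockdown cannot be told apart. IP stands for the anti-ac4C pull-down, and input libraries had no antibody.

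The kidney arises from intermediate mesoderm. OSR1 marks this tissue early, PAX2 and PAX8 specify the nephric lineage within it, and LHX1 and GATA3 act in the nephric duct and its ureteric bud, where GATA3 lies downstream of PAX2. EYA1, SALL1 and WT1 act in the metanephric mesenchyme that condenses around the bud and gives rise to nephrons, and WT1 stays on in podocytes. EYA1 is a co-activator and phosphatase that works with DNA-binding partners rather than binding DNA itself, and the other members bind DNA through paired, homeobox, zinc finger or GATA domains.

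Sequences around 2 short motifs are shown first, because the members differed in them and because the pull-down results below are given for the same genes. UGUGUG was searched since TDP43 is known to bind UG repeats, and UCCCAGCU was taken from the motif analysis of the study. Both were searched with these exact letters on the transcribed strand only, within the exon blocks of the count table, on hg19. WT1 held UGUGUG at 16 overlapping or separate positions, and 14 of these lay in 1 run of 32 bases in its 3′ UTR at chr11:32409551-32409582 on the minus strand. At least 16 copies were found in 0.949% of 4428 genes within 25% of the exon length of WT1. The other members held 0 to 2 copies, and 71.1% of the same 4428 genes held at least 1. UCCCAGCU occurred once each in SALL1, WT1 and OSR1, in coding sequence of the first 2 and in the 3′ UTR of OSR1, and it was found in 28.0%, 18.4% and 11.9% of genes of like length to each. The motif is in capitals, with the flanking bases in lower case, and the GATA3 copy is printed as a single copy to set beside the run in WT1.
WT1 UGUGUG, chr11:32409565-32409570, minus strand: gugugugugugUGUGUGugugugugugu
WT1 UCCCAGCU, chr11:32439171-32439178, minus strand: accaaaugacaUCCCAGCUugaaugcauga
SALL1 UCCCAGCU, chr16:51172954-51172961, minus strand: gagaucugccaUCCCAGCUcuuugagccca
OSR1 UCCCAGCU, chr2:19551481-19551488, minus strand: gggcagcccccUCCCAGCUcuugcagcuca
GATA3 UGUGUG, coding, chr10:8105967-8105972, plus strand: aaggcagggagUGUGUGaacuguggggc
A match describes the letters in the exons and no binding or acetylation at these positions was measured.

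Total counts per library ran from 27718784 to 36583436 in WT input, from 19615316 to 21066215 in WT IP and from 9022250 to 9466855 in WT IgG. In siTDP43 they ran from 24542434 to 31030950 in input, from 8610070 to 15736165 in IP and from 3013989 to 3436811 in IgG. A floor of 3 counts per library was worth 0.0870 CPM, the count scaled to the TMM-normalised library size, in WT input, 0.300 CPM in WT IgG and siTDP43 IP, and 1.13 CPM in siTDP43 IgG. Low values in siTDP43 IgG were therefore the least well resolved. CPM gives a share of a library. The study reports that pull-down RNA was too low to quantify before library preparation. Levels in IP and IgG are thus shares of the reads and not amounts of RNA recovered, also where the genotypes are compared. TARDBP itself measured 153 ± 3.86 CPM (SD, n = 3) in WT input and 102 ± 3.67 CPM in siTDP43 input, which was 67.2% of WT in the fit (edgeR adjusted p = 6.55e-13). The labels do not say whether replicates came from separate cultures, so the p-values cover only the spread between these libraries. Floors and counting intervals cover the counting error of amplified reads only, and they are too narrow where both mates of a fragment were counted.

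In WT input RNA the members ranged from well measured to barely detected. Levels between genes were compared as RPKM, which divides the counts by exon length in kilobases and by the total of the library. GATA3 was highest at 3.11 ± 0.363 RPKM (SD, n = 3), and SALL1 followed at 1.84 ± 0.0654 RPKM. EYA1 measured 0.843 ± 0.0538 RPKM and WT1 0.611 ± 0.0826 RPKM. LHX1 at 0.268 ± 0.101 RPKM and PAX2 at 0.227 ± 0.136 RPKM overlapped in their library ranges, and all higher neighbours in this order were separated. PAX8 had 0, 1 and 2 counts in the 3 WT input libraries, and OSR1 had 0 in each. The median of the 17184 genes detected in WT input was 2.19 RPKM, so that GATA3 alone stood above it, at the 55.4th percentile.

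In siTDP43 input the order differed. EYA1 was highest at 1.83 ± 0.262 RPKM, SALL1 was next at 0.903 ± 0.0625 RPKM, and GATA3 came after it at 0.720 ± 0.0343 RPKM. WT1 measured 0.265 ± 0.0194 RPKM and LHX1 0.111 ± 0.0764 RPKM. The library ranges of LHX1, OSR1, PAX2 and PAX8 overlapped from each to the next in this order. No member reached the median of detected genes, which was 2.00 RPKM, and EYA1 at the 48.7th percentile came closest.

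The embryonic kidney label was set against markers of differentiated nephron segments. Of 23 nephron markers, 3 reached 1 RPKM in every WT input library, which were PODXL, GGT1 and AQP3. The list summed to 12.3 to 12.6 RPKM per WT input library and to 6.21 to 6.79 RPKM per siTDP43 input library. AQP3 was the highest of the list, at a mean of 8.37 RPKM in WT and 3.21 RPKM in siTDP43 input. Of the 23 markers, 10 had no count in WT input and 10 had none in siTDP43 input. Among those at 0 in both were UMOD and SLC12A3 of the distal nephron and AQP2 of the collecting duct. No segment is called absent from these few genes. Of 10 neuronal markers, 4 reached 1 RPKM in every WT input library (NEFL, NEFM, TUBB3 and SYT1), and that list summed to 44.2 to 47.0 RPKM in WT and 75.7 to 79.6 RPKM in siTDP43. The higher sum came from NEFL, whose mean was 19.7 RPKM in WT and 52.9 RPKM in siTDP43, while NEFM stood at 19.7 and 11.7 RPKM and SYT1 no longer reached 1 RPKM in every library. Among 7 adrenal cortex markers, none reached 1 RPKM, and their sum stayed at or below 0.124 RPKM in every input library. The 6 mesenchyme markers summed to 397 to 404 RPKM in WT and 123 to 130 RPKM in siTDP43 input, nearly all of it VIM. The nephron, neuronal and mesenchyme sums thus differed between the genotypes beside the members, and their part in the members' results was not tested.

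**Figure D1:**
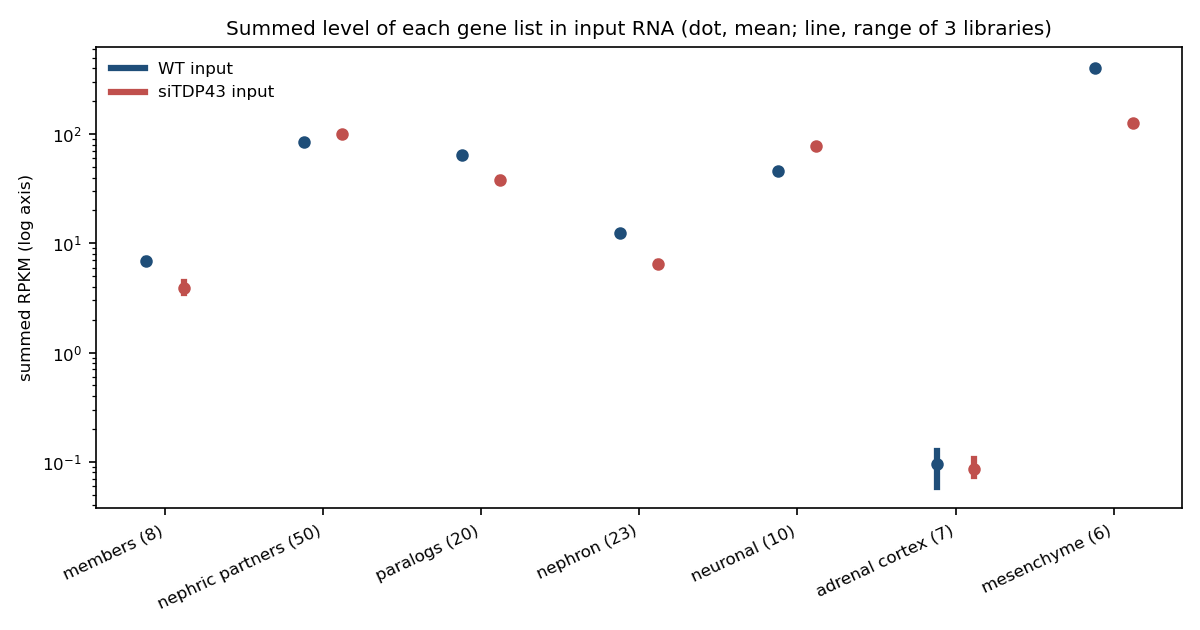
Summed level of each gene list in input RNA, in RPKM on a log axis, for WT (blue) and siTDP43 (red); dots are means and lines the range of 3 libraries. The 8 members summed to 6.64 to 7.17 RPKM in WT and 3.52 to 4.38 RPKM in siTDP43, far below the neuronal and mesenchyme lists.

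Input RNA was compared first, to ask how the abundance of the members differed after knockdown. GATA3, WT1, SALL1 and LHX1 fell in siTDP43 and EYA1 rose, so that the mesenchymal regulators did not move as a block. Of the 8 members, 5 passed the filter on low counts, and 4 of these were lower and 1 higher at an adjusted p below 0.05. Over all 14036 genes tested, 40.6% were lower and 38.6% higher, so a call in either direction was common. The median log2 fold change of the 5 tested members was -1.12, beside -0.05 over all genes. In such bulk RNA, fewer cells of a type and less RNA per cell cannot be told apart.

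GATA3, the duct factor, showed the largest fall among the tested members. It measured 9.92, 8.27 and 8.24 CPM in WT input and 2.27, 2.14 and 2.09 CPM in siTDP43 input. Every siTDP43 library lay below every WT library, and the spread within each genotype was small. The fit gave a log2 fold change of -2.01 (SE 0.169, edgeR adjusted p = 3.33e-12). LHX1, which acts in the same duct, had 0.595, 1.22 and 0.741 CPM in WT and 0.126, 0.633 and 0.355 CPM in siTDP43. Its groups overlapped, because siTDP43 replicate 2 was above WT replicate 1. The fit gave a log2 fold change of -1.24 (SE 0.516, edgeR adjusted p = 0.0290), and the call was lost without WT input replicate 2 (adjusted p = 0.209), without siTDP43 input replicate 1 (0.171) or replicate 3 (0.0589), with DESeq2 (0.0564) and after removal of a GC trend (0.0506). Without siTDP43 input replicate 2 the log2 fold change was -1.85. LHX1 passed the low-count filter only with the help of its WT libraries, the group where it was high. With halved counts it did not pass. That selection bears on its call and on the count and median of the tested members.

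EYA1, the co-activator of the mesenchyme, moved the other way. It measured 3.50, 3.36 and 3.79 CPM in WT input and 8.33, 9.15 and 6.98 CPM in siTDP43 input. All siTDP43 libraries were above all WT libraries, and the fit gave a log2 fold change of 1.20 (SE 0.161, edgeR adjusted p = 6.34e-08). SALL1, a zinc finger factor of the same mesenchyme, had 8.86, 9.56 and 8.95 CPM in WT and 4.48, 5.07 and 4.68 CPM in siTDP43. Its groups did not overlap, with a log2 fold change of -0.94 (SE 0.141, edgeR adjusted p = 4.97e-07). WT1 had 1.72, 1.73 and 2.17 CPM in WT and 0.788, 0.871 and 0.922 CPM in siTDP43. The siTDP43 libraries were again all lower, with a log2 fold change of -1.12 (SE 0.319, edgeR adjusted p = 0.00223).

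PAX2, PAX8 and OSR1, the 3 members that mark or specify the early lineage, did not pass the filter. PAX2 had 29, 54 and 11 counts in WT input and 2, 4 and 2 counts in siTDP43 input, and every siTDP43 library was below every WT library. Pooled over libraries its level was 0.105 of WT, with a 95% exact (Clopper-Pearson) counting interval of 0.0439 to 0.215. Without the low-count filter it was called lower, with a log2 fold change of -3.16 (edgeR adjusted p = 8.23e-06). PAX8 had 4, 0 and 0 counts in siTDP43 input and OSR1 had 0, 6 and 0. These single libraries gave no replicated level, and neither gene was called without the filter (edgeR adjusted p = 0.779 and 0.102). Exons of PAX8 share 22 bases with LOC654433 on the opposite strand, which had 4 to 14 counts in WT input and 0 in siTDP43 input, and reads there cannot be assigned without the strand setting.

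**Figure D2:**
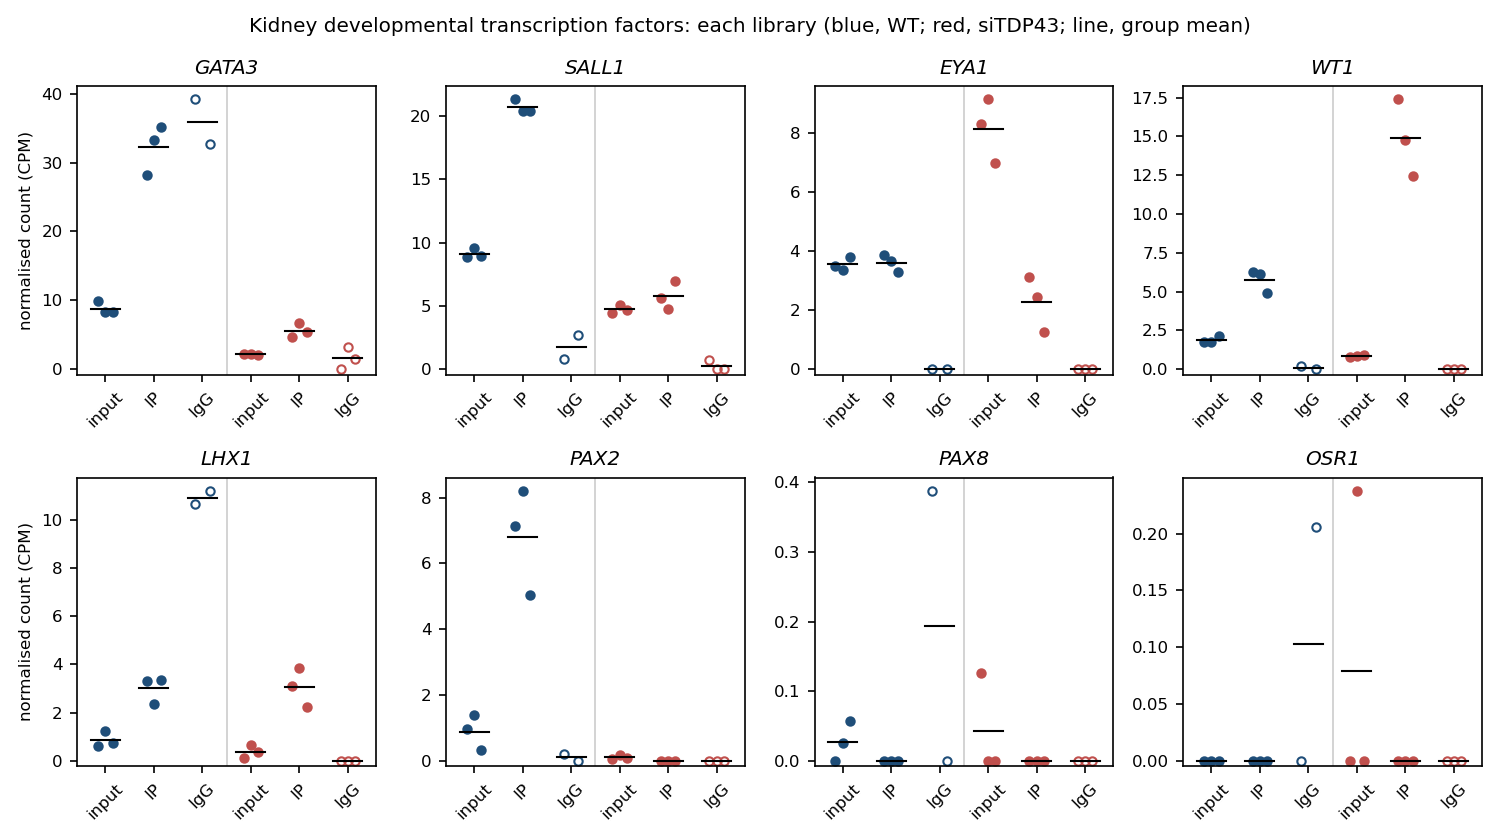
Normalised count in CPM of each member in each library, by input, IP and IgG in WT (blue) and siTDP43 (red), with the mean of each group as a line and a separate linear axis per gene. GATA3 and LHX1 were high in WT IgG, WT1 was highest in siTDP43 IP at 12.5 to 17.4 CPM, and PAX2 was at 0 in all siTDP43 pull-downs.

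Genes that act with the members in the nephric lineage were counted in the same comparison. Of 50 partner genes, 37 were tested, 12 were higher and 17 lower in siTDP43 input, and their median log2 fold change was -0.24. Over all genes 38.6% were higher and 40.6% lower. ITGA8, an integrin of the metanephric mesenchyme, rose from 0.832 ± 0.216 to 6.93 ± 0.450 CPM (SD, n = 3 each; log2 fold change 3.03, edgeR adjusted p = 1.33e-13). NPNT, which encodes its ligand nephronectin, rose from 2.07 ± 0.243 to 7.75 ± 1.15 CPM (log2 fold change 1.91, edgeR adjusted p = 5.44e-11). FGF9, a ligand that keeps nephron progenitors, rose from 2.38 ± 0.439 to 5.54 ± 1.89 CPM (log2 fold change 1.23, edgeR adjusted p = 1.03e-05). ROBO2, a receptor that limits ureteric budding, fell from 4.57 ± 0.371 to 2.04 ± 0.367 CPM (log2 fold change -1.15, edgeR adjusted p = 1.04e-05). BMP7, a survival signal of nephron progenitors, fell from 18.5 ± 2.35 to 10.5 ± 0.751 CPM (log2 fold change -0.82, edgeR adjusted p = 5.47e-08). They were named from partner genes whose libraries did not overlap between the genotypes, so that separation was part of the choice.

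Paralogs of the members were counted likewise. Of 20 paralogs, 14 were tested, 9 were lower and 1 was higher, with a median log2 fold change of -0.39. Over all genes 40.6% were lower and 38.6% higher. The single rise was PAX6, and the falls included EYA2 and EYA3, so the rise of EYA1 was not shared by these tested paralogs, of which EYA4 was not called. GATA2, GATA4 and GATA5 were lower as GATA3 was, with log2 fold changes of -3.28, -0.94 and -3.48, and GATA6 was not called. GATA2 had the highest level among the paralogs in WT input, at a mean of 18.9 RPKM, and stood at 1.82 RPKM in siTDP43 input. These paralogs were picked for their families after their values were seen.

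**Figure D3:**
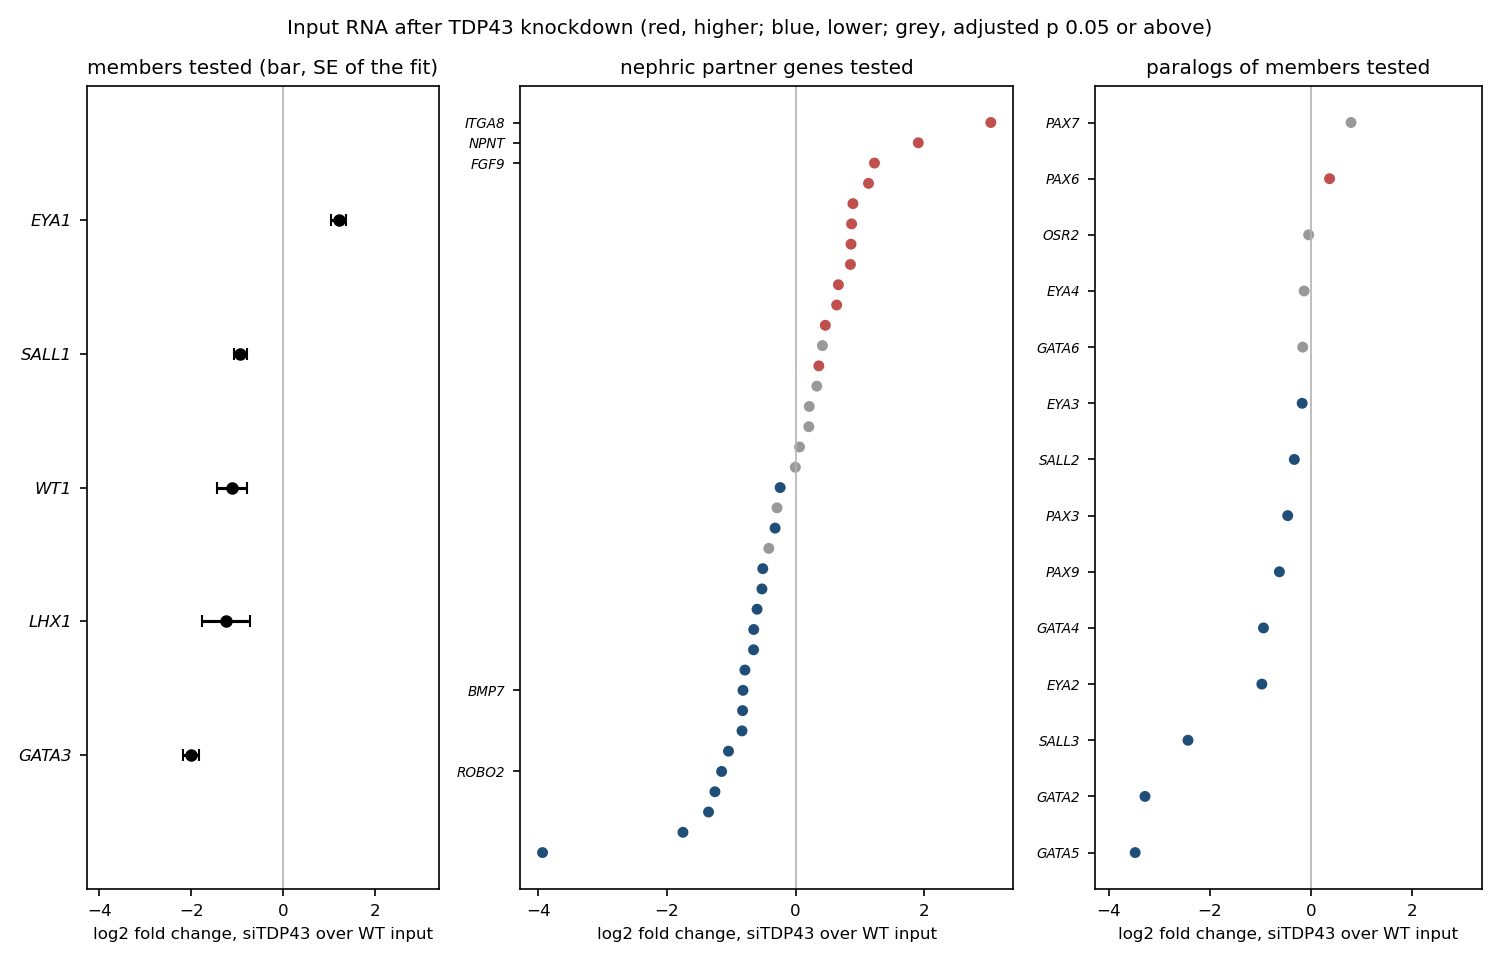
Log2 fold change of siTDP43 over WT input for the 5 tested members with the SE of the fit, for 37 tested partner genes and for 14 tested paralogs, where red is higher, blue lower and grey not called, and only partner genes named in the text are labelled. EYA1 stands at 1.20 among the members and the other 4 lie between -0.94 and -2.01, while the partner genes spread to both sides.

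Pull-down in WT was compared with input and with IgG, to ask which members had a larger share of reads in the ac4C fraction. Of the 6 members tested, 5 were higher in IP than in input (PAX2, GATA3, LHX1, WT1 and SALL1), 4 were higher in IP than in IgG (PAX2, WT1, SALL1 and EYA1) and 3 passed both and were ac4C(+) (PAX2, WT1 and SALL1). A call required an adjusted p below 0.05 and a fold change above 2. Over 14751 genes tested in WT, 30.2% were higher and 27.3% lower than input, 35.2% were higher and 17.8% lower than IgG, and 15.6% were ac4C(+). The median log2 fold change over input was 1.71 for the members and 0.01 for all genes. Of 50 partner genes 41 were tested, 22 were higher than input and 12 were ac4C(+).

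PAX2 showed the largest IP level relative to input in WT. It had 7.15, 8.20 and 5.05 CPM in WT IP against 0.959, 1.37 and 0.314 CPM in WT input, and 2 and 0 counts in WT IgG. All IP libraries were above all input and IgG libraries. The log2 fold change over input was 2.94 (SE 0.342, edgeR adjusted p = 3.04e-08). It was 1.71 after removal of a GC trend, near the 1.65 of GATA3 in that setting, and PAX2 had not passed the filter among the inputs alone. The ratio to IgG of pooled counts was 68.6 (95% exact counting interval 18.9 to 568; edgeR adjusted p = 1.71e-07). WT1 had 6.24, 6.16 and 4.92 CPM in WT IP and 2 and 0 counts in WT IgG. These IP libraries stood above all inputs, at a log2 fold change of 1.63 (SE 0.245, edgeR adjusted p = 1.70e-06), and the ratio to IgG was 58.0 (95% exact counting interval 16.0 to 481; edgeR adjusted p = 7.86e-09). The fit gave 64.2-fold for PAX2 and 54.5-fold for WT1 over IgG, and on the log2 scale WT1 went from 5.77 to 5.05 and PAX2 to 4.89 with the GC trend removed. Both IgG counts of each gene lay in WT IgG replicate 1 and may be the mates of a single fragment. Without replicate 2 the log2 values were 5.09 for PAX2 and 4.85 for WT1. SALL1 had 21.3, 20.4 and 20.4 CPM in WT IP and 0.776 and 2.67 CPM in WT IgG. It was higher in IP on both comparisons, with log2 fold changes of 1.19 over input (SE 0.146, edgeR adjusted p = 6.92e-08) and 3.58 over IgG (SE 0.263, edgeR adjusted p = 1.32e-11). The latter was 2.93 without WT IgG replicate 1 and 4.72 without replicate 2.

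GATA3 and LHX1, both genes of the nephric duct, took a larger share of reads in the WT control pull-down than in WT input. GATA3 had 28.3, 33.3 and 35.1 CPM in WT IP and 39.2 and 32.7 CPM in WT IgG, so that IP and IgG overlapped while both were above input. Its IP was higher than input by a log2 fold change of 1.88 (SE 0.114, edgeR adjusted p = 1.70e-13) and differed from IgG by -0.18 (SE 0.126, edgeR adjusted p = 0.193). With the GC trend removed the difference from IgG was -0.90 (edgeR adjusted p = 8.71e-07), which stayed within the 2-fold limit. LHX1 had 3.31, 2.37 and 3.37 CPM in WT IP and 10.7 and 11.2 CPM in WT IgG. Its IgG libraries were above all IP libraries, which were above all inputs. The IP was higher than input by 1.80 on the log2 scale (SE 0.294, edgeR adjusted p = 5.64e-06) and lower than IgG by a log2 fold change of -1.88 (SE 0.286, edgeR adjusted p = 2.43e-06), which was -2.59 with the GC trend removed. IgG over input was higher for GATA3 at 2.06 and for LHX1 at 3.68 on the log2 scale (edgeR adjusted p = 5.60e-13 and 1.02e-10).

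The other 4 tested members were lower in WT IgG than in input, and over all genes 24.4% were higher and 36.6% lower in that comparison. EYA1 was at least 11.8-fold lower in WT IgG than in input, and SALL1 had a log2 fold change of -2.39 (SE 0.278, edgeR adjusted p = 3.15e-08; -1.75 without WT IgG replicate 1 and -3.53 without replicate 2). The call for PAX2 was lost without WT IgG replicate 2 (edgeR adjusted p = 0.0822). EYA1 had no count in WT IgG and 3.88, 3.67 and 3.28 CPM in WT IP, so it was at least 12.1-fold higher in IP than the floor of 3 counts per IgG library (edgeR adjusted p = 2.33e-08). Its IP and input libraries overlapped, with a log2 fold change of 0.03 (SE 0.227, edgeR adjusted p = 0.894), and it was not ac4C(+). With the GC trend removed the value was 0.52 (edgeR adjusted p = 0.0386), which is under 2-fold. PAX8 and OSR1 had no count in WT IP and 4 and 2 counts in a single WT IgG library each.

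The same comparisons in siTDP43 named partly other members. Of the 5 tested, WT1, LHX1 and GATA3 were higher in IP than in input, EYA1 was lower, SALL1 was not called, and all 5 were higher than IgG. WT1, LHX1 and GATA3 were thus ac4C(+) in siTDP43 by the edgeR rule, under which WT1 was the only member ac4C(+) in both genotypes. With limma on log2(RPKM + 1), PAX2 alone was ac4C(+) in WT and WT1 alone in siTDP43, so no member was in both. Over the 12746 genes tested, 26.8% were higher and 25.4% lower than input, 34.0% higher and 15.0% lower than IgG, and 10.3% were ac4C(+). The members' median log2 fold change over input was 1.50, beside -0.09 for all genes. WT1 and LHX1 enter this median through a filter that they passed only by their IP libraries. Of 50 partner genes 32 were tested, 18 were higher than input and 6 were ac4C(+).

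WT1 had 17.4, 14.8 and 12.5 CPM in siTDP43 IP, 0.788 to 0.922 CPM in siTDP43 input and no count in siTDP43 IgG. Every IP library was above every other library of this gene in either genotype. The log2 fold change over input was 4.26 (SE 0.307, edgeR adjusted p = 9.90e-11), and IP was at least 13.2-fold higher than the IgG floor (edgeR adjusted p = 1.60e-08). LHX1 had 3.12, 3.85 and 2.24 CPM in siTDP43 IP and no count in IgG. Its IP libraries were all above its inputs, with a log2 fold change of 3.21 (SE 0.539, edgeR adjusted p = 1.82e-05), and IP was at least 2.72-fold higher than the IgG floor (edgeR adjusted p = 3.29e-04). In this fit WT1 and LHX1 passed the low-count filter only through their IP libraries, the group where they were high. That selection bears on the calls of both genes over input and IgG and on their ac4C(+) label. It also bears on the counts of called members and their median given above. GATA3 had 4.61, 6.68 and 5.36 CPM in IP and 0, 3.24 and 1.42 CPM in IgG. The IP libraries lay above both other groups, by 1.50 over input (SE 0.391, edgeR adjusted p = 0.00142) and 1.80 over IgG (SE 0.574, edgeR adjusted p = 0.00786) on the log2 scale, and the latter call was lost after removal of a GC trend (adjusted p = 0.0534). The value over IgG was 1.20 (edgeR adjusted p = 0.0452) without siTDP43 IgG replicate 1 and 2.86 without replicate 2.

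Of the 5 tested members, EYA1 was the one called lower in IP than in input. It had 3.12, 2.43 and 1.25 CPM in siTDP43 IP against 8.33, 9.15 and 6.98 CPM in input, with no overlap, and the fit gave a log2 fold change of -1.64 (SE 0.329, edgeR adjusted p = 1.35e-04). Against the IgG floor, where it had no count, IP was at least 2.01-fold higher (edgeR adjusted p = 3.32e-04). SALL1 had 5.65, 4.76 and 6.98 CPM in siTDP43 IP and overlapped its inputs, with a log2 fold change of 0.44 (SE 0.307, edgeR adjusted p = 0.195). It had 2, 0 and 0 counts in IgG, and the ratio of IP to IgG was 22.8 (95% exact counting interval 6.23 to 190; edgeR adjusted p = 1.43e-05). The fitted log2 fold change over IgG was 4.41, and it was 3.80 with the GC trend removed and 3.81 without siTDP43 IgG replicate 3. PAX2 had no count in any siTDP43 IP or IgG library, which allows up to 0.300 CPM in IP at 3 counts, and it was not tested beside its input of 8 counts. PAX8 and OSR1 also had none in the pull-downs.

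In siTDP43 IgG against input, EYA1 and SALL1 were lower, and over all genes 24.7% were higher and 41.0% lower. EYA1 was at least 7.23-fold lower, and the ratio of IgG to input for SALL1 was 0.0529 (95% exact counting interval 0.00639 to 0.192). The fitted log2 fold change of SALL1 was -3.98, and it was -3.24 with the GC trend removed and -3.38 without siTDP43 IgG replicate 3. WT1 was also called lower in the fit (edgeR adjusted p = 0.00694), but it had no count in IgG, and its input mean of 0.860 CPM was below the IgG floor of 1.13 CPM, so no decrease is shown at this depth. GATA3 was not called there (log2 fold change -0.29, edgeR adjusted p = 0.658), and neither was LHX1 (edgeR adjusted p = 0.100, or 0.0489 without siTDP43 input replicate 1), whose siTDP43 IgG libraries held no count. Both genes had been higher than input in WT IgG. Their mean level in IgG was 35.9 and 10.9 CPM in WT and 1.55 and 0 CPM in siTDP43.

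**Figure D4:**
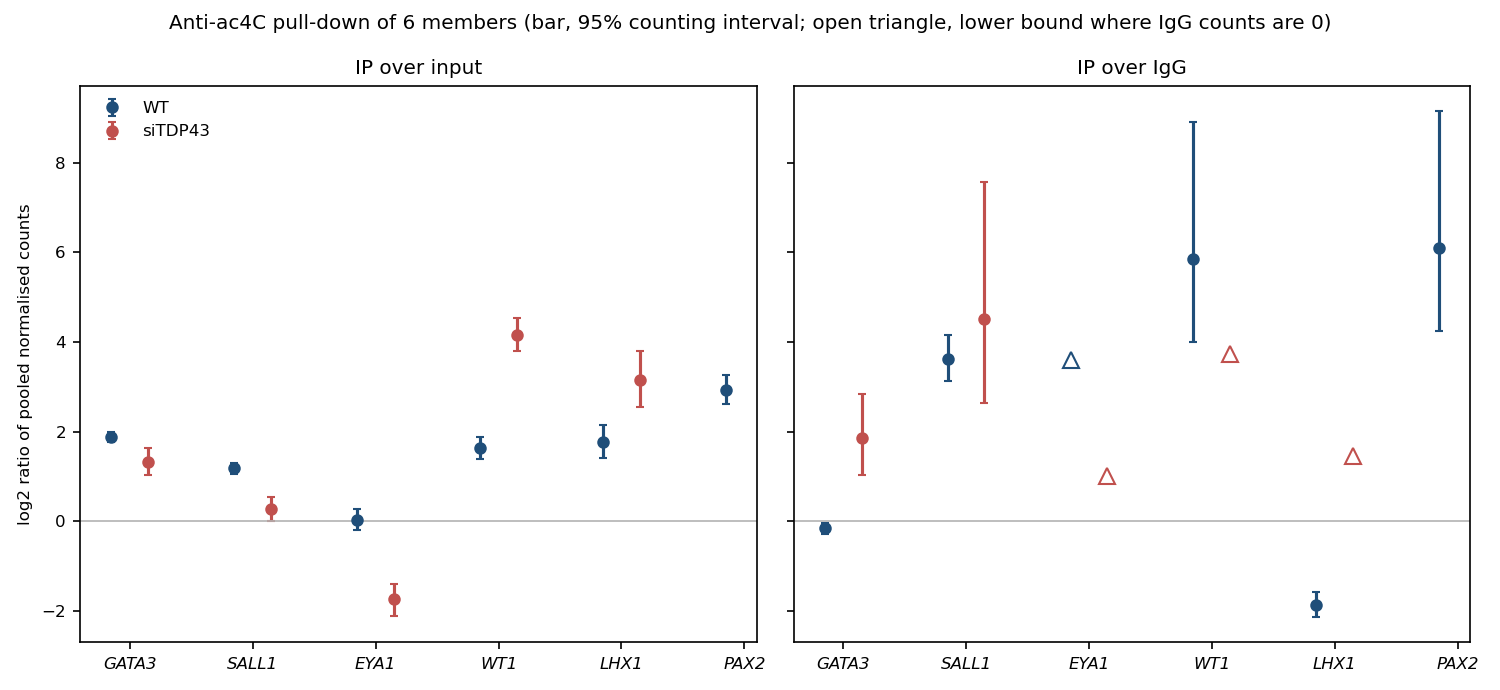
Log2 ratio of pooled normalised counts of IP over input and over IgG for 6 members in WT (blue) and siTDP43 (red), with 95% exact counting intervals and with open triangles for lower bounds where IgG had no count; PAX2 in siTDP43 is left out because its IP had no count. WT1 stands higher over input in siTDP43 than in WT, and EYA1 and SALL1 lower.

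The change of the pull-down between genotypes was tested as an interaction over all 17 libraries. Relative to input, WT1 rose and EYA1 and SALL1 fell in siTDP43, while GATA3 and LHX1 were not called. PAX2 was called lower too, on too few siTDP43 counts to read a fall. Of 15165 genes tested, 31.5% were higher and 36.3% lower. The IP of WT1 was 3.10-fold its input in WT and 19.1-fold in siTDP43, and the log2 change was 2.49 (SE 0.397, edgeR adjusted p = 1.26e-06). Its input had fallen, by -1.12 on the log2 scale, so part of this change lay in the input. The mean IP level of WT1 was 5.77 CPM in WT and 14.9 CPM in siTDP43. WT1 is the member with the UG run printed above, and whether that run had a part in the change was not tested.

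EYA1 changed by -1.81 on the log2 scale (SE 0.398, edgeR adjusted p = 1.59e-04), and its input had risen over the same libraries. SALL1 changed by -0.90 (SE 0.304, edgeR adjusted p = 0.00884), and this call was lost after removal of a GC trend (adjusted p = 0.121). PAX2 passed the filter only through its WT libraries, since it had no count in siTDP43 IP and 8 counts in all in siTDP43 input. The fit called it lower (edgeR adjusted p = 0.00368). With siTDP43 IP at the floor the log2 change was -1.32, a value that takes those 8 counts as exact. The value for GATA3 was -0.53 (SE 0.293, edgeR adjusted p = 0.105), and it was called lower with DESeq2 (adjusted p = 0.0310), with limma (0.00115), under scaling by total count (0.0135) and without siTDP43 IP replicate 2 (0.0497). The value for LHX1 was 1.29 (SE 0.599, edgeR adjusted p = 0.0556), and it was called higher without WT input replicate 1 (adjusted p = 0.0382), siTDP43 input replicate 2 (0.0126) or siTDP43 IP replicate 3 (0.0349). It was also called without the low-count filter (0.0399), with halved counts (0.0402) and with a GC trend removed (0.00984).

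Relative to IgG, GATA3 and LHX1 rose in siTDP43, where 34.9% of all genes were higher and 25.9% lower. The change of GATA3 was 2.03 on the log2 scale (SE 0.497, edgeR adjusted p = 5.24e-04), or 1.43 without siTDP43 IgG replicate 1 and 3.07 without replicate 2, and that of LHX1 was at least 3.31 with its siTDP43 IgG at the floor (edgeR adjusted p = 4.28e-07). The mean IP level of GATA3 was 32.2 CPM in WT and 5.55 CPM in siTDP43, and that of LHX1 was 3.01 and 3.07 CPM. The IP levels themselves were thus no higher in GATA3 and nearly equal in LHX1, while the IgG levels of both genes given above were far lower in siTDP43. SALL1 was not called at 0.89 (SE 1.12, edgeR adjusted p = 0.567), and neither was WT1 (edgeR adjusted p = 0.202). PAX2 and EYA1 have no value over IgG, because PAX2 was at 0 in both siTDP43 pull-downs and EYA1 in the IgG of both genotypes.

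Partner genes and paralogs were counted in the same interaction over input. Of 40 partner genes tested, 7 were higher and 20 lower, with a median log2 change of -0.80, and of 15 paralogs tested, 2 were higher and 8 lower, with a median of -0.80. The members had 1 higher and 3 lower of 6 tested, PAX2 being among the latter. Over all 15165 genes tested, 31.5% were higher and 36.3% lower, with a median of -0.19, so such calls were common.

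The members also differed in base composition and in which genes followed them across libraries. Exon GC content ran from 43.4% in EYA1 to 63.0% in PAX2, beside a median of 49.6% over 15165 genes, and exon length from 1894 bases in OSR1 to 5360 in SALL1, beside a median of 3024. Over the 17 libraries, which share their 6 groups, EYA1 correlated most with PPAPDC2 (Pearson r = 0.994) and PRMT7 (0.985) among 10141 genes, GATA3 with SLC22A17 (0.967) and FOXO4 (0.959), and LHX1 with ZBTB24 (0.966) and ZCCHC24 (0.962). SALL1 correlated most with CCDC106 (0.969) and MAN2C1 (0.961), WT1 with SLC25A28 (0.955) and ODZ3 (0.954), and PAX2 with BCAM (0.943) and MAZ (0.943). Among the members themselves the closest pair was LHX1 and GATA3 (0.802), with EYA1 and SALL1 nearly as close (0.796) and WT1 and SALL1 at 0.772.

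On hg19, GATA3 lies at chr10:8096667-8117164 and PAX2 at chr10:102505468-102589698 on the plus strand, as does LHX1 at chr17:35294772-35301915. SALL1 lies at chr16:51169886-51185183, WT1 at chr11:32409322-32457081, EYA1 at chr8:72109668-72274467, PAX8 at chr2:113973574-114036498 and OSR1 at chr2:19551246-19558372, all on the minus strand. Counts were summed over the exons of each gene, and no exon of the other 7 members overlapped another gene of the table.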

How the data were processed

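The deposited table held raw counts per gene, which the authors made from 17 acRIP-seq libraries of HEK293T poly(A) RNA. Reads were trimmed with Trim Galore 0.6.7, aligned with STAR 2.7.10a and, where uniquely mapped, counted with featureCounts 2.0.2. The methods name hg19, the labels mm10, and exon positions matched hg19. Libraries were built by Smart-seq2, and strand and mate handling are not given in the sources used here. Of 22 member counts from 1 to 20, 90.9% were even. Where both mates of a fragment were counted, the counts are not independent. Exact counting intervals and floors are then too narrow.

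The 8 members were all named. The members and all lists were chosen with earlier results of these data known. From the partner list, the 3 largest rises and 3 largest falls were named among genes past an adjusted p of 0.05 whose groups did not overlap and whose counts averaged 100 or more, and each member's 2 most correlated genes were named from log2 CPM. A gene that this rule names is not reported here. Lists were partner genes, paralogs, and nephron, neuronal, adrenal cortex and mesenchyme markers.

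Counts were normalised by TMM, filtered with filterByExpr (minimum count 10) and tested by two-sided quasi-likelihood F tests in edgeR 4.0.16 (R 4.3.3), adjusted by Benjamini-Hochberg over all genes tested. Inputs were fitted over 6 libraries, each genotype over its own libraries and interactions over 17. The study used DESeq2, and Student's t-tests as well for its ac4C(+) genes. CPM used TMM library sizes, and RPKM total counts and exon length. A group at 0 was set at 3 counts per library, and intervals were 95% exact (Clopper-Pearson). The fits were tested on simulated counts before use. Replicates differed by 3.26 to 9.43 chi-square units per degree of freedom, so no library was taken as a copy of another. This value cannot tell splits of 1 RNA sample from separate samples, because counting both mates would raise it too. Alternatives were DESeq2 1.42.0, limma 3.58.1 on log2(RPKM + 1), other scalings and filters, halved counts, a GC trend, a replicate block, 1 fit of all libraries and leaving out each library.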

Additional observations from a re-analysis of the deposited data

Results flagged for a closer look

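The IP over input of WT1, EYA1 and SALL1 differed between the genotypes in the edgeR interaction over all 17 libraries. The log2 change, siTDP43 minus WT, was 2.49 for WT1 (adjusted p = 1.26e-06), -1.81 for EYA1 (adjusted p = 1.59e-04) and -0.90 for SALL1 (adjusted p = 0.00884). The call for SALL1 was lost after removal of a GC trend (edgeR adjusted p = 0.121). The inputs differed as well, by a log2 fold change of -1.12 for WT1, 1.20 for EYA1 and -0.94 for SALL1. Over all genes 31.5% were called higher and 36.3% lower in this interaction. PAX2 was called too (adjusted p = 0.00368), but it passed the filter only through its WT libraries, and its siTDP43 libraries held no count in IP and 8 in input. Its value was -1.32 with the empty IP libraries set at 3 counts and the 8 input counts taken as exact, and no fall is read from it.

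Over IgG, the log2 change in the same edgeR fit was 2.03 for GATA3 (adjusted p = 5.24e-04) and at least 3.31 for LHX1 (adjusted p = 4.28e-07), and both genes were high in the 2 WT IgG libraries. Of all genes, 34.9% were called higher and 25.9% lower there. No group held the 4 libraries that a test for a single outlying library needs.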

How the results depend on the processing

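Of 988 member values recomputed under alternatives, 942 kept their direction and side of the threshold, 15 gained a call, 24 lost it and 7 turned sign. Of 395 counts of called members, 21 moved by over 1.5 times.

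limma on log2(RPKM + 1), which compresses low levels, accounted for 16 of the 24 lost calls. It gave 2 members higher in WT IP over input, 1 lower in WT IgG over input, 1 higher and 0 lower in siTDP43 IP over input, 1 higher in siTDP43 IP over IgG, 1 lower in siTDP43 IgG over input, 3 lower in the change over IgG, and 1 ac4C(+) member in each genotype. A mean of at least 50 counts, which tests fewer genes, gave 2 members lower in input, 1 higher in siTDP43 IP over input, 3 higher over IgG, 1 higher in the change over IgG and 1 ac4C(+) in siTDP43. In the change over input, 2 members were higher without the low-count filter, with halved counts and with the GC trend removed, and 1 to 2 when a library was left out. DESeq2 called 1 member lower in the change over IgG.

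The signs that turned belonged to values that had not passed the test in the main edgeR fit. EYA1 in WT IP over input was -0.0049 without the filter, -0.020 to 0.106 when a library was left out, and 0.52 with the GC trend removed. GATA3 in siTDP43 IgG over input was 0.24 with the GC trend removed and -1.37 to 0.29 when a library was left out. SALL1 in the change over IgG was -1.12 by limma, which called it lower (limma adjusted p = 8.12e-06). It was -0.24 to 6.24 when a library was left out. The cause was not tested.

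Same-numbered libraries did not deviate together in 24 pairs (r = -0.0213 to 0.0264), so the numbers were not taken to pair them. With the replicate block, 4 members were lower and 1 higher in input, and no count of called members moved by over 1.5 times. Scaling by total count shifted the median of all genes by -0.55 in siTDP43 IgG over input, and the GC trend by 0.72 there, the largest of these shifts. Counts below 10 in IgG and siTDP43 IP limit PAX2, PAX8 and OSR1 most.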
